A study of Mus musculus with 31 samples.

Results

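Macrophages lacking MyD88 and wild-type macrophages were compared for their response to 2 h of live E. coli. The comparison rests on 16 of the 31 arrays of the series, those titled E. coli against mock, which come from 4 wild-type and 4 MyD88-/- mice. Bone marrow was taken from C57BL/6J wild-type mice and from MyD88-deficient mice, all 6 to 8 weeks old, and grown into macrophages for 8 days in medium with L929-conditioned medium, a source of the growth factor CSF-1. Cells of both genotypes received log-phase E. coli at 1 bacterium per macrophage or medium only (mock), and each array paired the stimulated and the mock RNA of 1 mouse in 2 dyes. Every one of the 8 mice was measured in both dye orientations, and its value at a probe was the mean of these 2 arrays or, where only 1 had a value, that value. Between 13.6% and 31.1% of a mouse's values at the probes tested came from 1 array, most in wild-type mouse 1. The labels do not say how MyD88 was disrupted, whether the deficient mice were backcrossed, or which E. coli strain was used. The other 15 arrays, with re-purified LPS at 10 ng/mL, entered the estimate of spread and a final test between stimuli. Values are the authors' log2 ratios, so 1 unit is a 2-fold change. Their direction, stimulated over mock, is likely from the titles and from the behaviour of known LPS genes, but the labels do not state it.

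MyD88 is the adaptor protein through which most Toll-like receptors and the receptors for IL-1 and IL-18 signal to NF-kB and to the MAP kinases. E. coli carries LPS, seen by TLR4, together with lipoproteins, flagellin and DNA seen by other Toll-like receptors. TLR4 has a further adaptor, TRIF, which needs no MyD88 and leads to IRF3, interferon-beta and a later activation of NF-kB. Macrophages therefore make cytokines, chemokines and interferon-linked genes through routes that depend on MyD88 to different degrees.

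An E. coli array carried between 5564 and 10391 values for 13872 probes. The 2 arrays of a mouse correlated across probes with r between 0.256 and 0.710 once values at the floor of the scale were left out. Wild-type mouse 1 had the array with the fewest values (5564), although an array of wild-type mouse 2 came close with 5983. Wild-type mouse 1 stood apart in its share of probes past 2-fold, 21.6%, against 8.70% to 12.7% in the other 3 wild-type mice. Over the 6598 probes with values in all 8 mice this share was 13.9% ± 5.49 (SD, n = 4) in wild-type and 10.6% ± 2.84 (SD, n = 4) in MyD88-/- mice. An exact two-sided permutation test gave p = 0.457, where the smallest p that 4 against 4 mice allow is 0.0286. A difference in the overall size of the response was therefore not detectable with these mice. Myd88 itself had ratios of 1.89, 1.33, 1.45 and 1.27 in the wild-type mice and 0.74, 1.21, 1.51 and 1.70 in the MyD88-/- mice, a difference of -0.19 ± 0.60 (SE, adjusted p = 0.939). Each ratio is against mock cells of the same genotype, and where the probe lies in relation to the disrupted part is not given, so the probe is no test of the labelled genotype. For the same reason the arrays give no level of a macrophage marker. Of the 35 macrophage identity and phagocytosis genes listed, 31 were on the array, 28 were tested and 0 differed between the genotypes by the test used below. The marker lists for lymphocytes (T, B, and NK with mast cells), neutrophils, erythroid and stromal cells and for dendritic cells had 3 to 8 members tested each, with 0 called in any of them, and their part in the results was not tested.

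The genotypes differed at 50 of the 7887 probes tested (0.634%), at an adjusted p under 0.05. The test was limma's moderated test on the 16 values per mouse and stimulus, with Benjamini-Hochberg adjustment over all 7887 probes. It treats the E. coli and LPS values as independent, although mouse numbers recur under both stimuli and may be the same animals. Of these 50, 37 had a lower ratio in MyD88-/- macrophages (0.469% of the probes tested) and 13 a higher one (0.165%). Among the 37 lower probes, 16 rose in both genotypes but less without MyD88, and 17 rose in wild-type cells with no call in MyD88-/- cells. The remaining 4 lower probes were Cebpd and a probe without a gene symbol, which rose in wild-type and fell in MyD88-/- cells, Id2, which fell in both, and Pnkd, which fell in MyD88-/- cells only. Of the 13 higher probes, 9 fell in wild-type cells with no call in MyD88-/- cells, 3 fell in both genotypes and 1, Sgk1, fell in wild-type and rose in MyD88-/- cells. The values of the 4 wild-type and 4 MyD88-/- mice did not overlap at any of the 50 probes. Over all probes tested they did not overlap with the MyD88-/- mice lower at 4.39% and with the MyD88-/- mice higher at 4.56%. The median difference over all probes was 0.02, with a median SE of 0.30.

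The count depended on how the spread was estimated and on which arrays and probes were used. It was 23 with the E. coli mice alone and 168 when single arrays were fitted with the mouse as a random block. Unswapped arrays alone gave 21 of 6447 probes tested, and swapped arrays alone gave 39 of 6080. Of the 47 called probes that were also measured in unswapped arrays alone, all 47 kept the sign of the difference, as did the 47 measured in swapped arrays alone. The call itself held for 17 of these 47 in unswapped and 30 of 47 in swapped arrays. Tnf, Il1b, Il1rn, Ccl2, Ccl4, Saa3, Mmp13, Socs1, Myc, Junb, Id2 and Sgk1 were among those not called in unswapped arrays alone. With the E. coli mice alone Plk2, Id2, Junb, Mmp13, Cfb, Il1rn, Hbegf, Socs1, Myc and Apobec1 were among the 27 of 50 not called. After centring and scaling, Il1b, Ccl4, Il1rn, Junb, Socs1, Myc and Apobec1 were among the 12 not called. Of the 50 probes, 38 had values on all 16 arrays, and Ppargc1a (8), Il1a (13) and Esco2 (13) were among the 12 with fewer. Leaving out wild-type mouse 1 gave 34 calls, the fewest of any mouse left out, and 29 of the 50 probes stayed called without each E. coli mouse in turn. Alone, wild-type cells changed at more probes than MyD88-/- cells: 680 rose (8.62%) and 827 fell (10.5%) in wild-type cells, against 453 that rose (5.74%) and 311 that fell (3.94%) in MyD88-/- cells. The balance of rises and falls in wild-type cells turned with the dye orientation, with 629 rises and 853 falls in unswapped arrays and 518 rises and 371 falls in swapped arrays, and with the E. coli mice alone it was 590 and 540. In MyD88-/- cells the same 3 fits gave 387 and 371, 352 and 175, and 326 and 194. Without wild-type mouse 1 the wild-type total was 1107 in place of 1507, and without MyD88-/- mouse 2 the MyD88-/- total was 506 in place of 764. At the 680 probes that rose in wild-type cells the median ratio was 1.05 in wild-type and 0.64 in MyD88-/- cells, and 331 of them were also called as rises in MyD88-/- cells. At the 453 that rose in MyD88-/- cells the medians were 1.07 in wild-type and 1.17 in MyD88-/- cells. Choosing probes by 1 genotype favours that genotype, so these medians are descriptions only.

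**Figure D1:**
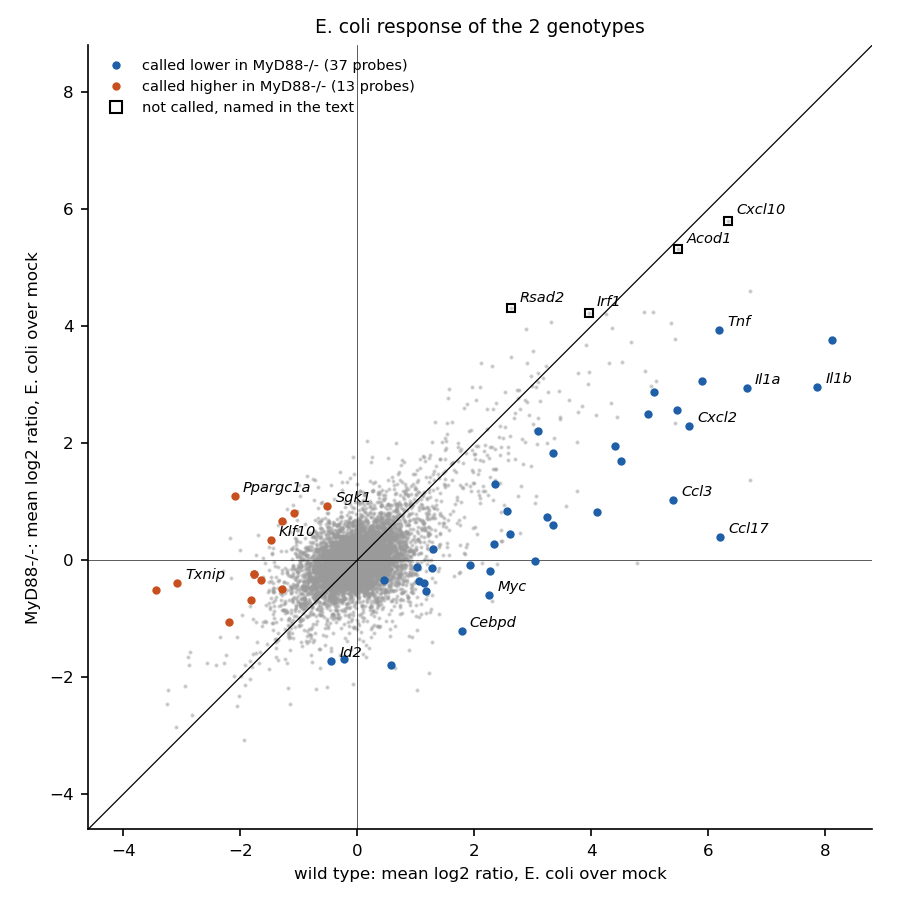
Mean log2 ratio of E. coli over mock in wild-type (x axis) and MyD88-/- macrophages (y axis), 1 point per probe tested (grey, 7887 probes), with the line of equal response. Blue points are the 37 probes called lower and orange points the 13 called higher in MyD88-/- cells; Ccl17 lies near 0 on the y axis at 6.20 on the x axis, while Cxcl10 (open square, not called) lies near the line at 6.34 and 5.81.

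Cytokine genes held 4 of the called genes. This list and all those below were drawn up with earlier results of these data known. Their shares and medians, set against all probes, are therefore descriptions only. The list of 25 cytokines had 22 on the array and 10 with enough values, of which 9 rose in wild-type cells and 8 rose in MyD88-/- cells. Of these 10, 4 were called lower (background 0.469%) and 0 higher. A negative difference was found at 9, against 48.7% of all probes, with a median of -1.89 against 0.02 over all probes. The 4 were Il1b, Il1a, Tnf and Il1rn.

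Il1b encodes interleukin-1 beta, a fever-inducing cytokine that is stored as a precursor. Its ratios were 8.26, 8.79, 6.81 and 7.58 in the wild-type mice and 1.74, 2.34, 3.80 and 3.95 in the MyD88-/- mice. Every wild-type mouse stood far above every MyD88-/- mouse. The difference was -4.90 ± 0.92 (SE, adjusted p = 0.0218), and the gene rose in both genotypes. A second Il1b probe stood at -0.36 in wild-type and -0.18 in MyD88-/- cells (difference 0.18, adjusted p = 0.711), so the 2 probes disagree. The call ended without wild-type mouse 1 or 2 or MyD88-/- mouse 1 or 2 (adjusted p from 0.0574 to 0.0745).

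Il1a encodes interleukin-1 alpha, which acts on the same receptor. Wild-type mice had ratios of 7.89, 6.05, 6.39 and 6.30, and MyD88-/- mice 2.59, 2.20, 2.43 and 4.52. MyD88-/- mouse 4 stood above its group, and all wild-type mice stood above it. The difference was -3.72 ± 0.60 (SE, adjusted p = 0.00691). Il1rn, the antagonist that occupies the IL-1 receptor without signalling, had 3.29, 3.72, 3.49 and 2.91 in wild-type and 2.09, 2.41, 1.59 and 1.21 in MyD88-/- mice. It rose in both genotypes, and its difference of -1.53 ± 0.31 (SE, adjusted p = 0.0306) was the smallest of the 4. This call ended without any 1 of wild-type mice 1 to 3 or MyD88-/- mice 3 and 4 (adjusted p from 0.0589 to 0.0792).

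Tnf, the early inflammatory cytokine tumour necrosis factor, had ratios of 6.34, 6.78, 5.84 and 5.76 in wild-type mice. In MyD88-/- mice they were 3.40, 4.21, 3.88 and 4.24, below every wild-type value and all well above 0. Tnf rose in both genotypes, by 6.18 and 3.93, and the difference of -2.25 ± 0.30 (SE, adjusted p = 0.00136) is a 4.75-fold lower induction. In unswapped arrays alone it was -1.84 and not called (adjusted p = 0.256), and in swapped arrays -2.66.

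Other cytokines had differences that did not pass. Il10, an anti-inflammatory cytokine, had ratios of 6.31, 4.34, 5.79 and 5.32 in wild-type and 0.12, 1.96, 4.02 and 3.30 in MyD88-/- mice. The genotypes did not overlap, but the MyD88-/- mice were widely spread, and the difference of -3.09 ± 0.77 (SE) had an adjusted p = 0.0920. Il12b, a subunit of interleukins 12 and 23, had 5.41, 5.02, 3.16 and 5.51 in wild-type mice and 1.71, 1.11 and -2.95 in the 3 MyD88-/- mice with a value. Its difference was -4.82 ± 1.20 (SE, adjusted p = 0.108). The macrophage growth factor Csf1 stood at 4.30 in wild-type and 3.38 in MyD88-/- cells, rising in both, with a difference of -0.92 ± 0.51 (SE, adjusted p = 0.488). Csf1 and Il15 were chosen after their values were seen, and Il15, a growth factor of NK and memory T cells, rose by 3.96 and 3.22 with a difference of -0.74 ± 0.44 (SE, adjusted p = 0.529).

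Chemokines, the secreted proteins that attract white blood cells, split into genes with large differences and genes with small ones. Of 31 listed, 30 were on the array and 20 were tested. Of these 20, 6 were called lower (background 0.469%) and 0 higher, with a median difference of -0.50, and 12 rose in wild-type but 7 in MyD88-/- cells.

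Ccl17, which attracts CCR4-bearing T cells, had the lowest difference of all called probes. The wild-type mice had ratios of 7.44, 5.99, 5.89 and 5.48, and the MyD88-/- mice 0.05, -0.14, 0.86 and 0.82. Every wild-type mouse showed a strong induction and no MyD88-/- mouse reached 1. The difference was -5.80 ± 0.52 (SE, adjusted p = 2.06e-05), a 55.9-fold difference of the ratios, and the response of 0.40 in MyD88-/- cells was not called (adjusted p = 0.610).

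Ccl3 and Ccl4, related chemokines that attract macrophages and T cells, were both lower. Ccl3 had 5.66, 5.47, 5.32 and 5.13 in wild-type and 1.74, 0.19, 1.00 and 1.18 in MyD88-/- mice. The wild-type mice lay close together, far above the MyD88-/- mice, and the difference was -4.37 ± 0.55 (SE, adjusted p = 0.000782). Ccl4 had 6.26, 5.22, 5.17 and 5.19 in wild-type and 3.37, 2.24, 1.85 and 2.79 in MyD88-/- mice. It kept a clear rise in MyD88-/- cells, and the difference was -2.89 ± 0.52 (SE, adjusted p = 0.0165). Without wild-type mouse 1 or MyD88-/- mouse 2 the Ccl4 call ended (adjusted p from 0.0531 to 0.0652).

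The monocyte attractants Ccl2 and Ccl7, ligands of CCR2, rose in wild-type cells and were not called in MyD88-/- cells. Ccl2 had ratios of 4.31, 3.63, 4.01 and 4.43 in wild-type and 1.25, 0.43, 0.60 and 1.00 in MyD88-/- mice, with no overlap and all MyD88-/- values above 0. Its difference was -3.28 ± 0.35 (SE, adjusted p = 0.000169), and -3.18 in unswapped arrays alone (adjusted p = 0.0505). Ccl7 had 3.28, 2.26, 2.73 and 3.85 in wild-type and 0.20, -0.32, 0.19 and -0.13 in MyD88-/- mice, which lay on both sides of 0. Its difference was -3.05 ± 0.35 (SE, adjusted p = 0.000342).

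Among the neutrophil attractants, Cxcl2 had 5.59, 5.62, 5.58 and 5.91 in wild-type and 2.51, 1.86, 2.37 and 2.41 in MyD88-/- mice. It rose in both genotypes with little spread between mice, and the difference was -3.39 ± 0.30 (SE, adjusted p = 2.06e-05). Cxcl1, its close relative, had 6.11, 6.76, 6.52 and 7.48 in wild-type and 3.65, 4.09, 4.90 and 5.77 in MyD88-/- mice. The groups did not overlap here either, but the MyD88-/- mice reached higher, and the difference of -2.12 ± 0.62 (SE) did not pass (adjusted p = 0.151).

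Cxcl10, which attracts CXCR3-bearing T cells and is induced through interferon signalling, was among the strongest responses in both genotypes. Its ratios were 6.84, 6.64, 6.12 and 5.75 in wild-type and 5.81, 6.52, 5.30 and 5.60 in MyD88-/- mice. The groups overlapped, and the difference of -0.53 ± 0.39 (SE) did not pass (adjusted p = 0.612). Ccl5, which attracts T cells and monocytes, had 5.37, 5.42, 4.64 and 4.76 in wild-type and 3.91, 4.55, 4.08 and 4.44 in MyD88-/- mice. Its mice did not overlap, yet the difference was only -0.80 ± 0.31 (SE, adjusted p = 0.287). Ccl9 and Cxcl16, chosen after their values were seen, rose by 1.46 and 1.09 in wild-type and by 1.49 and 0.96 in MyD88-/- cells, with differences of 0.03 ± 0.17 and -0.14 ± 0.17 (SE, adjusted p = 0.971 and 0.797).

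**Figure D2:**
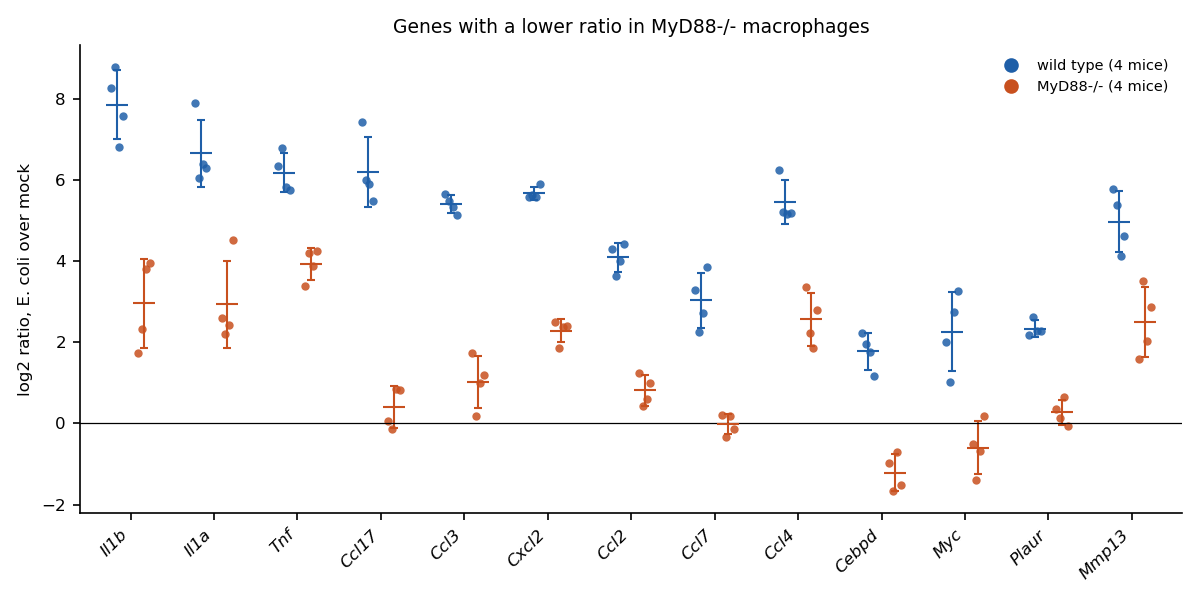
Log2 ratio of E. coli over mock in each mouse for 13 genes called lower in MyD88-/- cells, with 1 point per mouse and the mean ± SD of 4 mice (blue wild type, orange MyD88-/-). The mice of the genotypes do not overlap in any of the 13, and Ccl17, Ccl7 and Plaur lie around 0 in MyD88-/- cells while Tnf stays at 3.40 or more.

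Promoter sequences of 3 chemokine genes are shown: Ccl17, which had the lowest difference, Cxcl2, which rose in both genotypes but less without MyD88, and Cxcl10, which was not called. Each runs from 250 bases before to 50 bases after the transcription start in the RefSeq annotation of mouse build GRCm38.p6, 5′ to 3′ on the gene's own strand: Ccl17 at chr8:94810203-94810502 (+), Cxcl2 at chr5:90903649-90903948 (+) and Cxcl10 at chr5:92348840-92349139 (-). Capitals mark a match on either strand to an NF-kB pattern (GGGA, any base, TT, any base, CC), an ISRE pattern, the element of interferon-regulated promoters (GAAA, any 2 bases, GAAA), or an AP-1 pattern (TGANTCA).
Ccl17: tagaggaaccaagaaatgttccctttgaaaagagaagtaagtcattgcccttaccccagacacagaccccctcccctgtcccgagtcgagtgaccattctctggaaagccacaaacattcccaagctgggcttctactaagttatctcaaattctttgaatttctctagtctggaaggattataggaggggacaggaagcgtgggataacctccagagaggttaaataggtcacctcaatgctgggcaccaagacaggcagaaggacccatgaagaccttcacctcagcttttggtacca
Cxcl2: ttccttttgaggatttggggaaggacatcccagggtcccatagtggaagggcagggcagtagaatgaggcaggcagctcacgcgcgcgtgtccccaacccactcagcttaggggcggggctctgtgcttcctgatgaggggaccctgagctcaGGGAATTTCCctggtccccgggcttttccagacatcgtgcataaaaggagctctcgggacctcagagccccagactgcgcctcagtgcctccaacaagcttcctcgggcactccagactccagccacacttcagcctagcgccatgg
Cxcl10: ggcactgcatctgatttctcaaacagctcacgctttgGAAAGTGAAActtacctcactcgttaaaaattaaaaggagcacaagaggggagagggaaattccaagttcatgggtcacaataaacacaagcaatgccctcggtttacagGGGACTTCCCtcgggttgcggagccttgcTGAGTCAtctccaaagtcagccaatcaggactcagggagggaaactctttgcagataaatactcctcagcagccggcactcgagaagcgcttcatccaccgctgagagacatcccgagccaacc
Cxcl2 held 1 NF-kB match, starting 97 bases before the start site, and Cxcl10 held an NF-kB match at 103, an ISRE match at 213 and an AP-1 match at 74 bases before it. The Ccl17 window held none of the 3 patterns, which says only that these letters are not in this window. Promoters were found for 23 of the 31 named genes called lower (25 promoters) and for 9 of the 12 called higher (18 promoters). An NF-kB match lay in 1 of the 25 (4%), an ISRE match in 4 (16%) and an AP-1 match in 4 (16%), against 1.29%, 3.09% and 6.22% of the 6675 promoters of all tested genes. In the 18 promoters of the higher genes the counts were 0, 3 (16.7%) and 1 (5.56%), where the 3 ISRE promoters belong to 2 genes, Sgk1 and Rnase6, the latter with overlapping windows. These are descriptions of letters, several promoters can belong to 1 gene, and none was tested.

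Immediate early genes, transcription factors and signalling regulators that respond within minutes to hours, had negative differences almost throughout. Of 49 listed, 43 were on the array and 34 tested. In value 31 of the 34 were lower in MyD88-/- cells, against 48.7% of all probes, with a median of -0.97 (-0.84 without wild-type mouse 1). The test called 5 of the 34 lower (Cebpd, Myc, Plk2, Id2 and Junb, background 0.469%) and 1 higher (Klf10, background 0.165%). Members of this list were also chosen with earlier results of these data known, so the shares are descriptions only. In wild-type cells 18 of the 34 rose and 8 fell, and in MyD88-/- cells 8 rose and 11 fell.

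Cebpd, a C/EBP transcription factor of the acute phase response, moved in opposite directions. The wild-type mice had ratios of 2.24, 1.96, 1.77 and 1.17, all above 0, and the MyD88-/- mice -0.98, -1.66, -0.70 and -1.53, all below 0. Its difference was -3.00 ± 0.25 (SE, adjusted p = 2.06e-05). The rise of 1.78 in the wild type and the response of -1.22 without MyD88 each passed the test (adjusted p = 4.17e-06 and 0.000261).

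Myc, a growth-promoting transcription factor, had 2.00, 1.02, 2.76 and 3.26 in wild-type and -0.52, -1.38, -0.69 and 0.19 in MyD88-/- mice. The difference of -2.86 ± 0.61 (SE, adjusted p = 0.0491) lay at the threshold, and it did not pass without 11 of the 16 mice of the fit in turn (adjusted p from 0.0577 to 0.122). Plk2, a stress-induced kinase, had 1.75, 1.57, 2.04 and 2.35 in wild-type and -0.33, -0.25, -0.56 and 0.79 in MyD88-/- mice, with 3 of the 4 MyD88-/- mice below 0. Its difference was -2.01 ± 0.28 (SE, adjusted p = 0.00140). Junb, an AP-1 subunit, rose in both genotypes, from 2.23 to 2.55 in wild-type and from 0.94 to 1.65 in MyD88-/- mice, with a difference of -1.06 ± 0.18 (SE, adjusted p = 0.00914). Id2, an inhibitor of helix-loop-helix transcription factors, fell in both and further without MyD88. Its ratios were -0.35, -0.78, -0.26 and -0.41 in wild-type and -1.40, -2.21, -1.78 and -1.50 in MyD88-/- mice, a difference of -1.27 ± 0.21 (SE, adjusted p = 0.00727). A second Id2 probe, with too few values to test, had 0.585 and -1.19 in wild-type mice 3 and 4 and -0.70 in MyD88-/- mouse 1.

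Klf10, a zinc-finger repressor linked to TGF-beta signalling, went the other way. Its ratios were -1.73, -1.64, -1.31 and -1.25 in wild-type mice and 0.23, 0.58, 0.13 and 0.40 in MyD88-/- mice, so that every wild-type mouse fell and every MyD88-/- mouse stood above 0. The difference was 1.82 ± 0.21 (SE, adjusted p = 0.000342). The growth-response factors Egr1 and Egr2 had differences of -1.11 ± 0.26 and -2.04 ± 0.56 (SE) that did not pass (adjusted p = 0.0736 and 0.122). Egr2 rose by 5.02 in wild-type and 2.98 in MyD88-/- cells, while Egr1 rose by 1.25 in wild-type cells and stood at 0.15, not called, in MyD88-/- cells. Fos stood at -0.79 and -1.28, and Jun fell by 2.11 and 1.99, with differences of -0.49 ± 0.46 and 0.12 ± 0.50 (SE, adjusted p = 0.701 and 0.959), Jun being chosen after its values were seen. The stress gene Gadd45b, chosen in the same way, rose by 4.34 and 2.69, and its difference of -1.65 ± 0.36 (SE) had an adjusted p = 0.0627.

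Inflammatory effectors, the enzymes, proteases and acute phase proteins that carry out the response, had 36 members tested of 50 on the array. The test called 4 lower (Mmp13, Saa3, Cfb and Plaur, background 0.469%) and 0 higher, with a median difference of -0.54, and 20 rose in wild-type but 11 in MyD88-/- cells. Plaur, the receptor of the protease urokinase, was among the probes with the smallest p-values. Its ratios were 2.18, 2.63, 2.27 and 2.27 in wild-type and 0.36, 0.14, 0.64 and -0.05 in MyD88-/- mice, a wide gap between 2 tight groups. The difference was -2.07 ± 0.18 (SE, adjusted p = 2.06e-05), and the response of 0.27 in MyD88-/- cells was not called. A second Plaur probe had too few values to test and disagrees in wild-type cells. It stood at 1.25 and -0.90 in wild-type mice 2 and 4 and at 0.04 in MyD88-/- mouse 1.

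Saa3, an acute phase apolipoprotein made by macrophages, had 5.34, 5.42, 4.66 and 4.90 in wild-type and 3.16, 2.42, 2.72 and 3.19 in MyD88-/- mice. It rose in both genotypes, with a difference of -2.21 ± 0.29 (SE, adjusted p = 0.00105), which was -1.73 and not called in unswapped arrays alone (adjusted p = 0.283). A second Saa3 probe had too few values to test and disagrees. It stood at 0.48 in wild-type mouse 3 and at -0.63 and -0.15 in MyD88-/- mice 1 and 2. Mmp13, a collagenase, had 5.78, 5.39, 4.12 and 4.61 in wild-type and 1.58, 3.50, 2.04 and 2.87 in MyD88-/- mice. Mmp13 also rose in both, with a difference of -2.48 ± 0.46 (SE, adjusted p = 0.0184) whose call ended without wild-type mouse 1 or 2 or MyD88-/- mouse 1 or 3 (adjusted p from 0.0501 to 0.0699).

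Cfb, complement factor B of the alternative pathway, had 3.44, 2.36, 2.44 and 2.19 in wild-type and -0.41, 1.09, 0.94 and 0.14 in MyD88-/- mice. Only the wild-type response was called, and the difference was -2.17 ± 0.41 (SE, adjusted p = 0.0251), which did not pass without wild-type mouse 1 or MyD88-/- mouse 1 or 4 (adjusted p from 0.0602 to 0.0777).

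Ptgs2, the inducible cyclooxygenase of prostaglandin synthesis, was chosen after its values were seen because its difference of -5.35 ± 1.08 (SE) lay just outside the threshold (adjusted p = 0.0526). Its ratios were 8.01, 6.45, 6.10 and 6.32 in wild-type mice and 3.41, -0.25 and 0.94 in the 3 MyD88-/- mice with a value. The groups did not overlap, and the rise of 6.72 in wild-type cells passed the test while the value of 1.37 in MyD88-/- cells did not. Of the 36 effectors tested, 27 had a negative difference, against 48.7% of all probes. Acod1, the enzyme that makes itaconate, had 5.48, 5.95, 5.06 and 5.45 in wild-type and 5.32, 5.28, 5.14 and 5.53 in MyD88-/- mice. Acod1 rose fully in both, with overlapping mice and a difference of -0.17 ± 0.28 (SE, adjusted p = 0.856). Clec4e, a receptor for mycobacterial and fungal glycolipids, rose by 4.25 and 4.21, with a difference of -0.04 ± 0.34 (SE, adjusted p = 0.979). Nos2, the inducible nitric oxide synthase, stood at 2.05 and 0.45, and the pentraxin Ptx3 at 2.50 and 0.95, with differences of -1.59 ± 0.72 and -1.56 ± 0.48 (SE, adjusted p = 0.374 and 0.176). Clec4e, Nos2 and Ptx3 were chosen after their values were seen.

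Socs1, Noct and Hbegf were further lower genes. Socs1, an inhibitor of cytokine receptor signalling, was the only one of 33 tested cytokine receptor and SOCS genes called lower, with 0 higher (background 0.469% and 0.165%) and a list median of 0.11. Its ratios were 4.32, 4.25, 2.89 and 1.53 in wild-type and 0.71, 1.13, 0.57 and 0.51 in MyD88-/- mice, where wild-type mouse 4 came near the MyD88-/- mice. The difference was -2.52 ± 0.54 (SE, adjusted p = 0.0491), and it did not pass without 14 of the 16 mice of the fit in turn (adjusted p from 0.0567 to 0.136). Noct, which encodes the clock-controlled phosphatase nocturnin, was lower on both of its probes. The first had 5.55, 4.20, 4.51 and 3.77 in wild-type and 2.11, 1.38, 1.55 and 1.71 in MyD88-/- mice, a difference of -2.82 ± 0.39 (SE, adjusted p = 0.00140). The other gave -2.45 ± 0.28 (SE, adjusted p = 0.000277). Noct was the only gene called among the 15 tested genes of messenger RNA decay and translation control, and Zfp36, the decay factor tristetraprolin, stood at 1.56 and 0.69, with a difference of -0.87 ± 0.24 (SE, adjusted p = 0.130). Hbegf, a ligand of the EGF receptor, had 3.23, 0.93, 2.26 and 2.66 in wild-type and -0.40, 0.29, 0.25 and -0.90 in MyD88-/- mice. Only the wild-type rise was called, with a difference of -2.46 ± 0.45 (SE, adjusted p = 0.0210) that did not pass without wild-type mouse 1 or 4 or MyD88-/- mouse 1 or 4 (adjusted p from 0.0536 to 0.0662).

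The probes with the smallest p-value and with the largest wild-type response carry names that are not those of known inflammatory genes. The probe annotated as Prpf8, a core splicing factor, had ratios of 3.38, 3.16, 3.02 and 3.82 in wild-type and 0.38, 0.49, 0.80 and 0.70 in MyD88-/- mice. Its difference of -2.75 ± 0.20 (SE) had an adjusted p = 9.15e-06, while the other 24 of 25 tested splicing genes were not called and the list median was 0.02. The probe annotated as Rpl39l, a ribosomal protein-like gene with near-identical relatives, had 8.48, 9.53, 7.07 and 7.42 in wild-type and 2.89, 3.36, 3.78 and 5.04 in MyD88-/- mice. It rose in both genotypes, with a difference of -4.35 ± 0.58 (SE, adjusted p = 0.00106), while 0 of 30 tested ribosomal protein genes were called and their median was 0.02. By orientation the Rpl39l difference was -3.18 in unswapped arrays, where it was not called (adjusted p = 0.357), and -5.53 in swapped arrays. Whether these 2 probes measure the genes they are named for was not tested.

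The remaining lower calls are given to complete the 37 and were named after their values were seen. Coq10b, a coenzyme Q binding protein, stood at 1.14 in wild-type and -0.40 in MyD88-/- cells, with a difference of -1.54 ± 0.20 (SE, adjusted p = 0.000955). Pnkd fell by 1.69 in MyD88-/- cells against -0.23, not called, in wild-type cells (adjusted p of the difference 0.0115). Rnd3 and Plscr1, an interferon-inducible scramblase, rose in both genotypes, with differences of -1.72 ± 0.33 and -0.89 ± 0.19 (SE, adjusted p = 0.0265 and 0.0415). Eef1e1, the phosphatase gene Ptpn11 and Epop rose in wild-type cells only, with differences between -1.41 and -1.11. The calls of Rnd3, Plscr1, Eef1e1, Ptpn11 and Epop each ended without at least 2 of the mice in turn, wild-type mouse 1 among them in every case (adjusted p from 0.0517 to 0.114). There were 5 lower probes with no gene symbol, with differences from -2.83 to -0.79. One of them, probe 5583, had 0.38, 0.59, 0.65 and 0.67 in wild-type and -1.63, -2.20, -1.86 and -1.47 in MyD88-/- mice, opposite directions like Cebpd, with a difference of -2.36 ± 0.22 (SE, adjusted p = 2.91e-05). Another, probe 1168, rose by 5.90 in wild-type and 3.06 in MyD88-/- cells, and its call ended without 8 of the 16 mice in turn (adjusted p from 0.0501 to 0.0927).

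None of the interferon and interferon-stimulated genes listed differed between the genotypes by the test. Plscr1, given above as called lower, is not in this list. Of 71 listed, 54 were on the array and 46 tested, 29 of which rose in wild-type and 32 in MyD88-/- cells. The test called 0 lower and 0 higher, with 12 of 46 at an unadjusted p under 0.05, against 12.7% of all probes tested. A higher value in MyD88-/- cells was found at 35 of the 46, against 51.3% of all probes. Their median difference was 0.33, 0.34 after centring each array and 0.44 without wild-type mouse 1.

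Ifnb1, which encodes interferon-beta, had the lowest difference of the list. Its ratios were 2.88, 1.21, 1.76 and 1.14 in wild-type and 0.17, 0.28, 0.32 and 0.25 in MyD88-/- mice. It rose in wild-type cells, was not called in MyD88-/- cells, and its mice did not overlap. The wild-type mice were more widely spread than the MyD88-/- mice, and the difference of -1.49 ± 0.41 (SE) did not pass (adjusted p = 0.117). Rsad2, the antiviral protein viperin, had the highest difference, with 2.72, 3.89, 1.56 and 2.36 in wild-type and 4.33, 5.91, 3.60 and 3.42 in MyD88-/- mice. The mice overlapped and the difference of 1.68 ± 0.68 (SE) did not pass (adjusted p = 0.308). Ifit1, which binds foreign RNA, ranged from 1.79 to 4.74 in wild-type and from 3.23 to 5.79 in MyD88-/- mice, a difference of 0.75 ± 0.84 (SE, adjusted p = 0.770).

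Irf1, a transcription factor of the interferon response, rose by 3.95 and 4.23, with a difference of 0.28 ± 0.46 (SE, adjusted p = 0.861). Irf7, its relative that amplifies interferon production, rose by 1.05 in MyD88-/- cells and stood at 0.47, not called, in wild-type cells (difference 0.59 ± 0.36 SE, adjusted p = 0.539). Mx1, an antiviral GTPase, was lower in value in MyD88-/- cells, at 0.15 against a rise of 0.88, with a difference of -0.73 ± 0.20 (SE, adjusted p = 0.133). Its relative Mx2 and the interferon-induced Ifit3, both chosen after their values were seen, rose in both genotypes with differences of -1.25 ± 0.64 and 1.35 ± 0.54 (SE, adjusted p = 0.439 and 0.306).

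NF-kB pathway and feedback genes had no called member either. Of 23 tested, 17 rose in wild-type and 15 in MyD88-/- cells, 0 were called in either direction, 2 had an unadjusted p under 0.05 (12.7% of all probes did), and the median difference was -0.01 (0.06 after centring and scaling the arrays). Tnfaip3, the deubiquitinase A20 that limits NF-kB, had 2.46, 6.51, 5.57 and 5.13 in wild-type and 1.81, 3.77, 3.34 and 4.02 in MyD88-/- mice. Wild-type mouse 1 fell among the MyD88-/- mice, and the difference of -1.68 ± 0.68 (SE) did not pass (adjusted p = 0.313). Traf1, a signalling adaptor that NF-kB induces, rose by 3.92 and 3.68, with a difference of -0.23 ± 0.72 (SE, adjusted p = 0.937). The NF-kB subunit genes Relb and Nfkb2, chosen after their values were seen, rose by 2.77 and 2.75 in wild-type and 2.91 and 2.77 in MyD88-/- cells, with differences of 0.14 ± 0.44 and 0.02 ± 0.32 (SE, adjusted p = 0.937 and 0.990).

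Toll-like receptor pathway genes had 19 members tested, with 0 called in either direction, 3 at an unadjusted p under 0.05 (12.7% of all probes), and a median difference of -0.16. Tlr2, the receptor for bacterial lipoproteins, had 2.54, 3.13, 2.56 and 2.25 in wild-type and 2.97, 3.77, 3.39 and 3.77 in MyD88-/- mice. It rose in both, the mice overlapped, and the difference of 0.85 ± 0.25 (SE) did not pass (adjusted p = 0.157). Peli1, a ubiquitin ligase that acts with IRAK kinases, rose by 3.01 and 2.32 (difference -0.69 ± 0.20 SE, adjusted p = 0.151), while a second probe gave a difference of -0.18 (adjusted p = 0.925). Vcam1, the adhesion molecule that binds integrin alpha-4, rose in both genotypes. Its ratios were 3.59, 2.83, 2.20 and 2.77 in wild-type and 4.11, 5.21, 4.72 and 3.93 in MyD88-/- mice, which did not overlap. The difference of 1.65 ± 0.41 (SE) had an adjusted p = 0.0894. Vcam1 is in the costimulation and adhesion list, where 0 of the 20 tested genes were called.

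The 13 probes with a higher ratio in MyD88-/- cells stand for 12 genes, and wild-type cells fell at all 13. Txnip, an inhibitor of thioredoxin that is linked to glucose uptake, was called on both of its probes. The first had -3.24, -2.22, -2.64 and -4.21 in wild-type and -0.52, -0.16, -0.77 and -0.15 in MyD88-/- mice. A strong fall in every wild-type mouse stood against values near 0, and the difference was 2.68 ± 0.40 (SE, adjusted p = 0.00391), with 2.95 ± 0.47 (SE, adjusted p = 0.00727) on the other probe. Sgk1, a kinase induced by glucocorticoids and serum, had -0.71, -0.82, -0.34 and -0.19 in wild-type and 0.75, 0.88, 0.87 and 1.20 in MyD88-/- mice. It fell in wild-type and rose in MyD88-/- cells, with a difference of 1.44 ± 0.24 (SE, adjusted p = 0.00843). Txnip and Sgk1 were the 2 of 17 tested glucocorticoid, circadian and FoxO-linked genes called higher (background 0.165%), with 0 lower. This list, which also holds Cnr2, Gpr146, Lyl1 and Hhex, was drawn up with earlier results of these data known. The share is therefore a description only. Tsc22d3, the glucocorticoid-induced leucine zipper gene, chosen after its values were seen, fell in both genotypes. Its ratios ran from -3.09 to -2.59 in wild-type and from -2.08 to -1.55 in MyD88-/- mice. They did not overlap, as at 4.56% of all probes tested with the MyD88-/- mice higher. The difference of 1.07 ± 0.57 (SE) did not pass (adjusted p = 0.459). Its SE is from the spread pooled over all 4 groups, LPS included, while the SDs of the E. coli mice were 0.24 and 0.27.

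Ppargc1a, the coactivator PGC-1 alpha of mitochondrial genes, had the largest positive difference, 3.18 ± 0.57 (SE, adjusted p = 0.0254). Its ratios were -3.50, -0.45 and -2.34 in the 3 wild-type mice with a value and 1.01, 1.17, 0.64 and 1.54 in the MyD88-/- mice, on 8 of the 16 arrays. The wild-type mice were widely spread, and the call ended without MyD88-/- mouse 1, 2 or 4 (adjusted p from 0.0564 to 0.0655).

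Apobec1, a cytidine deaminase that edits apolipoprotein B messenger RNA, had -2.31, -2.44, -2.25 and -1.80 in wild-type and -0.98, -1.21, -1.05 and -0.97 in MyD88-/- mice. It fell in both genotypes, with a difference of 1.15 ± 0.18 (SE, adjusted p = 0.00560). Trim59, a TRIM-family ubiquitin ligase, had -1.64, -1.76, -1.50 and -1.65 in wild-type and -0.24, -0.32, -0.48 and -0.34 in MyD88-/- mice, tight groups far apart. Its difference was 1.30 ± 0.19 (SE, adjusted p = 0.00309), and a second probe gave 1.85 without passing (adjusted p = 0.0637).

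Cell division and nuclear genes were also in this set. Esco2, an acetyltransferase of sister chromatid cohesion, had -2.03, -1.72, -1.77 and -1.52 in wild-type and -0.26, 0.31, -0.46 and -0.53 in MyD88-/- mice, with a difference of 1.53 ± 0.26 (SE, adjusted p = 0.0112). Fbxo5, an inhibitor of the anaphase-promoting complex, fell in both genotypes, by 1.82 and 0.68, with a difference of 1.13 ± 0.22 (SE, adjusted p = 0.0246). The nuclear lamina gene Lmnb1 had -0.22, -1.14, -2.32 and -1.48 in wild-type and 1.24, 0.32, 0.44 and 0.65 in MyD88-/- mice, with a difference of 1.95 ± 0.38 (SE, adjusted p = 0.0280). The broader cell cycle list did not follow, with 0 of 28 tested genes called and a median difference of 0.11.

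Rnase6, a ribonuclease with antimicrobial activity, and Slc25a36, a mitochondrial nucleotide carrier, had a called fall in wild-type cells alone, with differences of 1.88 ± 0.37 and 1.52 ± 0.31 (SE, adjusted p = 0.0292 and 0.0393). Nfam1, an ITAM-bearing immune receptor, fell in both, by 1.29 and 0.49, with a difference of 0.79 ± 0.17 (SE, adjusted p = 0.0477). The calls of Fbxo5, Lmnb1, Rnase6, Slc25a36 and Nfam1 ended without at least 4 mice in turn. For Fbxo5 these were mice 1 and 2 of each genotype (adjusted p from 0.0574 to 0.0777), and for Lmnb1 and Rnase6 wild-type mice 2 to 4 and MyD88-/- mice 1 and 4 (0.0519 to 0.0845). Slc25a36 did not pass without 11 of the 16 mice of the fit in turn (0.0537 to 0.108) and Nfam1 without 14 of them (0.0515 to 0.120).

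**Figure D3:**
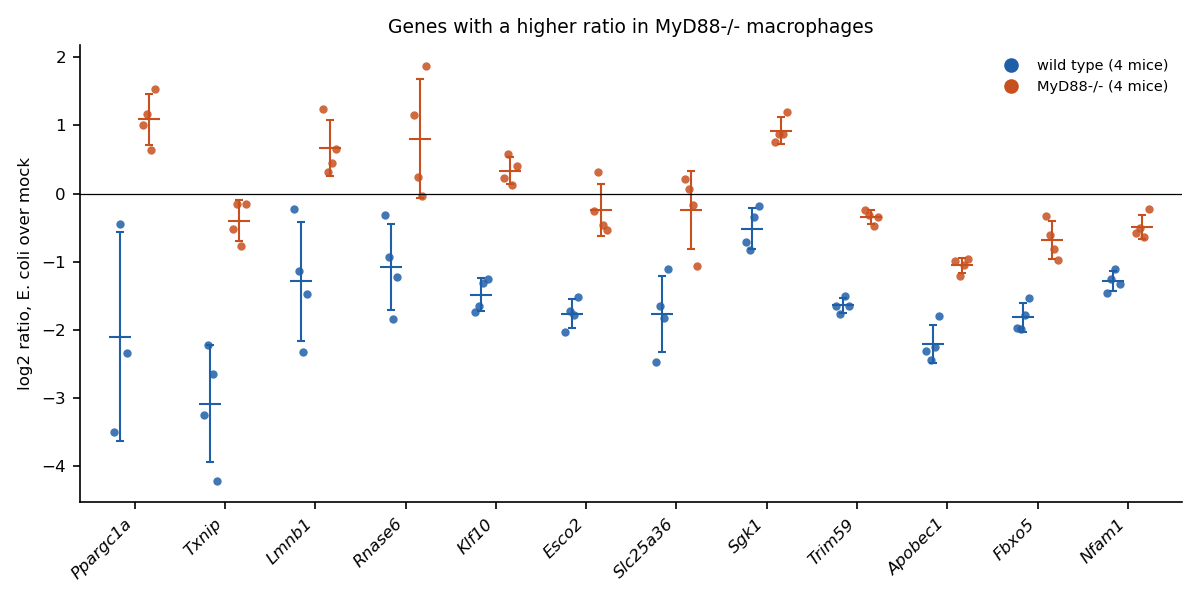
Log2 ratio of E. coli over mock in each mouse for the 12 genes called higher in MyD88-/- cells, with 1 point per mouse and the mean ± SD (blue wild type, orange MyD88-/-; Ppargc1a has a value in 3 wild-type mice). All wild-type means lie below 0, and those of Txnip (-3.08) and Apobec1 (-2.20) are the lowest, while the MyD88-/- mice of Sgk1, Klf10, Lmnb1 and Ppargc1a lie above 0.

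Some genes known for strong induction by bacteria could not be tested, because a probe needed values in at least 3 mice of each genotype. Il6, the fever and acute phase cytokine, had ratios of 6.48, 4.69, 3.57 and 4.61 in the 4 wild-type mice and values in only 2 MyD88-/- mice, -0.47 and -0.06. Csf2, the growth factor GM-CSF, had 4.54, 2.79, 5.14 and 3.74 in the wild-type mice and a single MyD88-/- value of -0.42. All wild-type values of both genes stood far above the few MyD88-/- values, and neither difference was tested. Other untested genes overlapped. Il23a had 3.38, 0.80, 1.83 and 2.41 in wild-type and 0.13 and 1.89 in MyD88-/- mice. Iigp1 had 3.83, 1.93, 2.77 and 2.10 in wild-type and 0.83 and 2.54 in MyD88-/- mice. A Cx3cl1 probe averaged 1.90 in 4 wild-type and 2.33 in 2 MyD88-/- mice. Csf2, Il23a, Iigp1 and Cx3cl1 were chosen after their values were seen. A spot can lack a value for reasons that the deposited table does not record. Across the array, 272 probes had values in 3 or 4 wild-type mice and in 0 or 1 MyD88-/- mice, and 411 had the reverse. Nfkbia, Tlr4 and Cd14 were likewise on the array with too few values.

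Of the 43 genes called, 25 were in a list, 20 of them among the cytokines, chemokines, effectors and immediate early genes, and 18 were in none of the 27 lists. No list was tested as a set. Costimulation and adhesion, antigen presentation, cell death and survival, glycolysis and hypoxia, sterol and lipid metabolism, macrophage identity and cell cycle had 0 calls and medians between 0.03 and 0.11. In that order 7 of 20, 4 of 19, 5 of 25, 1 of 14, 4 of 15, 7 of 28 and 2 of 28 had an unadjusted p under 0.05, against 12.7% of all probes. Antigen presentation, with 19 genes tested, had a median of 0.06 and cell death and survival, with 25 tested, 0.03. Among survival genes Cflar, an inhibitor of caspase-8, rose by 2.87 and 2.03, and its difference of -0.85 ± 0.20 (SE) did not pass (adjusted p = 0.0730). In the oxidative stress list Txnip was the only one of 20 called, and Hmox1, the heme-degrading enzyme, fell by 1.29 and 0.59 with a difference of 0.69 ± 0.25 (SE, adjusted p = 0.258). The median differences of the cytokine, chemokine, immediate early and effector lists stayed negative after centring and after scaling the arrays, from -1.88 to -1.65, -0.50 to -0.38, -0.95 to -0.91 and -0.57 to -0.48.

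**Figure D4:**
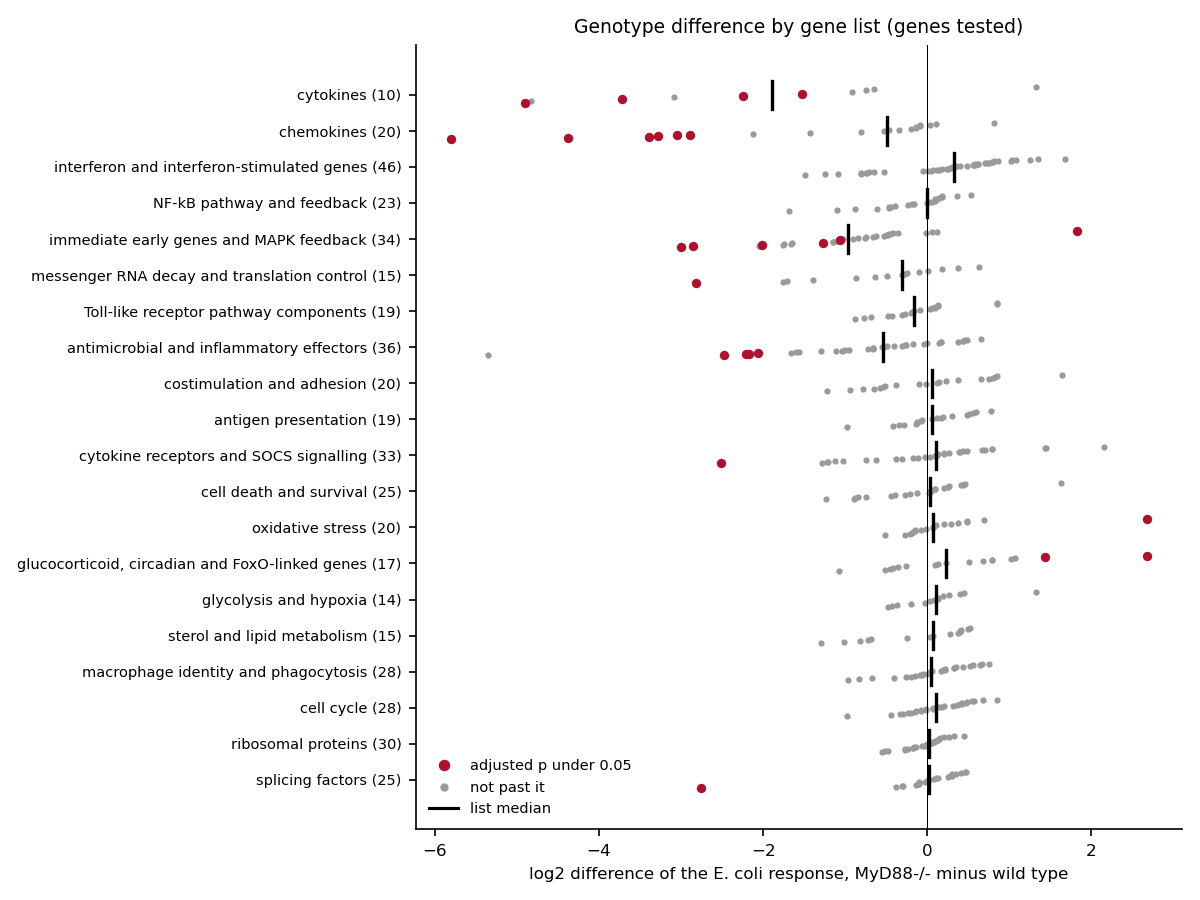
Difference of the E. coli response, MyD88-/- minus wild type, on the log2 scale, for each tested gene of 20 gene lists (number tested in brackets), with called genes in red, others in grey and the list median as a black bar. The medians of the cytokine (-1.89) and immediate early (-0.97) lists are the lowest, and that of the interferon list (0.33) the highest.

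The last question was whether the genotype difference depended on the stimulus. The LPS arrays of both genotypes gave a difference at 21 of 7325 probes (0.287%) that had values in 3 mice of all 4 groups. The 2 comparisons may share mock samples, since the mouse numbers recur under both stimuli, so their values are set side by side and tested only through the difference of differences. That test called 0 of 7325 probes (0%), with 210 at an unadjusted p under 0.05 and a smallest adjusted p of 0.9998. This treats the values of both stimuli as independent, and 210 is 2.87% of the probes. With the mouse number within a genotype as a block, on the assumption that a number is 1 animal, 0 of 6973 were called, 260 had an unadjusted p under 0.05 and the smallest adjusted p was 0.9995. The median SE was 0.41 in the test without the block and 0.375 with it, each larger than the 0.30 of the E. coli difference alone. The result does not show that the stimuli act alike.

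Several genes called with E. coli are set side by side with LPS. They were chosen by their E. coli difference, which favours a larger value there, so the sizes are descriptions only. Ccl17 differed by -5.80 with E. coli and -3.84 ± 0.52 (SE) with LPS, where wild-type cells stood at 3.74 and MyD88-/- cells at -0.10. Il1b differed by -4.90 and -2.48 ± 0.92 (SE), Ccl3 by -4.37 and -2.54 ± 0.55 (SE) and Cxcl2 by -3.39 and -2.51 ± 0.30 (SE). Tnf differed by -2.25 with E. coli and -1.52 ± 0.30 (SE) with LPS, and Cebpd by -3.00 and -2.47 ± 0.25 (SE). Klf10 differed by 1.82 and 1.62 ± 0.21 (SE), and Txnip by 2.68 and 3.58 ± 0.43 (SE), larger in value with LPS. The smallest unadjusted p for the difference between stimuli among the called E. coli genes belonged to Ppargc1a, with 3.18 against -0.35, an interaction of 3.53 ± 0.83 (SE, unadjusted p = 0.00117). It was followed by Cfb, with -2.17 against -0.10 (interaction -2.07 ± 0.60 SE, unadjusted p = 0.00397). Both have an adjusted p of 0.9998 and were singled out after their values were seen. Ifnb1, at -1.49 with E. coli and -0.39 with LPS, and Cxcl10, at -0.53 and 0.65, were not called under either stimulus.

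**Figure D5:**
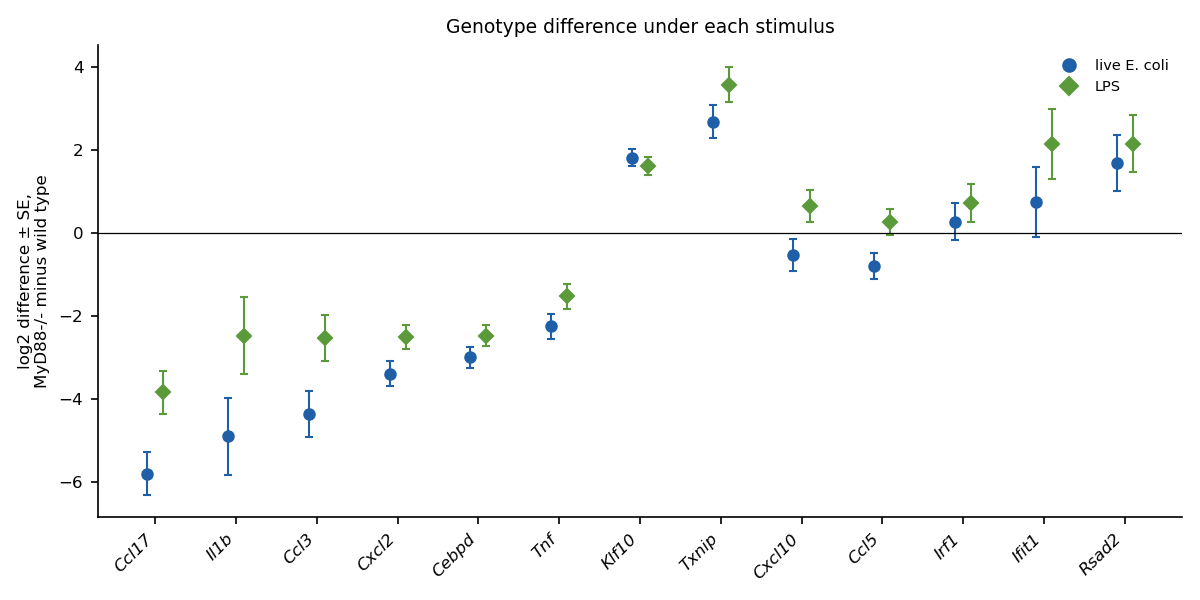
Genotype difference (MyD88-/- minus wild type, log2 scale, ± SE from the fit) with live E. coli (blue circles) and with LPS (green diamonds) for 13 genes, 4 mice per genotype and stimulus. From Ccl17 to Tnf the E. coli difference is the lower in value, as for Ccl17 at -5.80 and -3.84, and the interferon-linked genes Cxcl10, Ccl5, Irf1, Ifit1 and Rsad2 lie at -0.80 or above under both stimuli; the difference between stimuli was called for none.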

How the data were processed

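RNA of stimulated and mock macrophages was hybridised to 2-colour spotted arrays, scanned on a GenePix 4000B and read with GenePix Pro, with BASE and GeneSpring used afterwards, per the labels' protocols. The authors deposited log2 ratios. Their background correction, normalization and spot filters are not given in the sources used here, and the depth of an array is only its number of values. Values at log2 of 0.01 (2181 of 133231, 1.64%) were set missing as a floor, and the dye orientations with a value were averaged per mouse. Probes needed values in 3 mice of both E. coli groups. limma 3.58.1 in R 4.3.3 fitted the 4 groups together, with Benjamini-Hochberg adjustment, after tests on simulated data. Responses of 1 genotype were tested against 0 in the same fit. Nothing says that mice of a group were prepared on separate days, so p-values measure only the spread between these samples. Mouse numbers did not pair the genotypes (same-number correlations from -0.05 to 0.12). Of 13872 probes, 11480 had 1 gene symbol, 50 several and 2342 none. Named genes were the 14 lowest called differences and, where the rule asked for the 14 highest, the 13 that were higher, the 4 of smallest p in each list, and a set of known response genes. Members, lists and named genes were chosen with earlier results of these data known. Alternatives were other scalings, filters, orientations and fits, and leaving out each mouse.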

Additional observations from a re-analysis of the deposited data

Results flagged for a closer look

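In 4 of 100 groups of 4 mice, 1 mouse stood apart by Dixon's criterion, where chance gives about 1 group in 20. For Cxcl2 it was wild-type mouse 4, at 5.91 with the nearest mouse at 5.62, a small gap in a tight group. For Il1a it was MyD88-/- mouse 4, at 4.52 with the nearest at 2.59. Wild-type mouse 1 stood apart for Ccl4, at 6.26 with the nearest at 5.22, and for the probe 1168 without a gene symbol, at 7.40 with the nearest at 5.50. The calls of Cxcl2 and Il1a held without these mice, and those of Ccl4 and probe 1168 did not.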

How the results depend on the processing

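The count of probes with a genotype difference was 50. It was 23 with the E. coli mice alone, 21 in unswapped arrays, 168 in single arrays with the mouse as a random block and 120 at an adjusted p under 0.1. The share of higher calls was 26% and became 42.3% in the single-array fit. The count of probes called ranged from 34 to 53 when each mouse was left out. With the replicate block it was 56, with 44 of the 50 probes kept, although the mouse numbers did not pair the samples. The wild-type response count of 1507 was 889 in swapped arrays alone, and ranged from 1107 to 1628 with a mouse left out. The MyD88-/- count of 764 ranged from 506 to 826, the lowest without MyD88-/- mouse 2. The difference between stimuli gave 0 calls in each alternative run, also with the mouse number within genotype as replicate block, an alternative chosen after seeing the data. The share past 2-fold differed by -3.24 percentage points, from -4.97 to -0.65 with a mouse left out, and an exact permutation test within the replicate block gave p = 0.875. None of the 50 called differences changed sign under any alternative that measured the probe. In wild-type cells the balance did turn, from 680 rises and 827 falls to 518 and 371 in swapped arrays alone. With the E. coli mice alone it was 590 and 540. The median difference of the NF-kB list went from -0.01 to 0.06 after centring and scaling the arrays. Of the 50 probes, 14 were called under every alternative that measured them, and the cause of the lost calls was not tested.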
